A study of Mus musculus with 12 samples.

Results

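Interferon-inducible GTPases were followed across 4 groups of sorted myeloid cells from the mouse central nervous system (CNS). The set held 9 genes, listed by name: Gbp2, Gbp3, Gbp5, Gbp7 and Gbp9 of the guanylate-binding protein (GBP) family, and Irgm1, Irgm2, Igtp and Iigp1 of the immunity-related GTPase (IRG) family. All 9 were among the 25904 genes of the deposited table, and all 9 passed the filter on low values. Of these, 8 had a normalized count above 10 in each of the 12 libraries. Iigp1 was below 10 in the 3 WT microglia libraries and passed through the other groups.

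All mice were C57BL/6, and every group had 3 RNA-seq libraries. Microglia, the resident macrophages of the CNS, came from Tgfbr2fl/fl mice (WT microglia) or Cx3cr1CreER/+Tgfbr2fl/fl mice (KO microglia), in which tamoxifen deletes the type II TGF-beta receptor. Both genotypes received 5 mg tamoxifen on each of 3 days, and brain and spinal cord cells were sorted 18 to 22 days afterwards. The macrophages were monocyte-derived: Cx3cr1CreER/+R26DTA/+ recipients were irradiated, transplanted with Tgfbr2fl/fl bone marrow (WT macrophages) or Cx3cr1CreER/+Tgfbr2fl/fl bone marrow (KO macrophages), given the same tamoxifen course after 6 weeks to deplete microglia, and sorted 18 to 22 days after it. Several features of the design moved together with the genotype. The CreER sits in the Cx3cr1 gene, so KO cells also carry 1 altered Cx3cr1 copy that WT cells lack. Cells were Ly6C-negative and CD11b-positive in all groups, but the gate took F4/80-low cells for WT and F4/80-high cells for KO. No marker in the labelled gate separates donor-derived macrophages from remaining host cells. Deletion, altered Cx3cr1 copy and gate therefore cannot be told apart in the KO comparisons. Only the macrophages came from irradiated, transplanted recipients with depleted microglia. Cell origin therefore cannot be told apart from these treatments in the comparisons between origins and in the interaction. Mice were pooled, 1 to 5 per library, and each p-value measures differences against the spread of such pools.

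GBPs and IRGs are GTPases of cell-autonomous immunity. They are made at low level in resting cells, are induced by interferon-gamma and, to a varying degree, by type I interferon, and act on the membranes of vacuoles that hold bacteria and parasites. IRG proteins fall into a regulatory class, with Irgm1, Irgm2 and Igtp (also called Irgm3), and an effector class that includes Iigp1 (also called Irga6). The regulatory members keep the effectors inactive on the cell's own membranes, and the effectors and GBPs load onto vacuoles that lack them. In microglia, transcripts of both families are commonly used as readouts of an interferon response.

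In GRCm38, Gbp5, Gbp7, Gbp3 and Gbp2 lie in this order on the plus strand of chromosome 3, between 142493978 and 142638008. Gbp9 is in a second cluster on chromosome 5 (105077630 to 105139539, minus strand). Irgm1 (48861968 to 48871683, minus strand), Igtp (58199556 to 58207591, plus strand) and Irgm2 (58199618 to 58222782, plus strand) are on chromosome 11. In the GENCODE models the Irgm2 gene begins inside Igtp and extends past its end. Both share 162 exon bases on the same strand, 8.01% of the Igtp exons and 4.39% of the Irgm2 exons. Gbp9 shares 60 exon bases with Gbp8 and Gbp4, and Gbp7 shares 11.3% of its exon bases with the predicted gene Gm43802. How reads in such stretches were assigned is not given in the sources used here, so values of these genes carry that uncertainty.

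The promoter sequences of the genes whose values the results turn on are shown because both families are classical interferon targets. RefSeq windows (GRCm38.p6) from 250 bases before to 50 bases after the transcription start were at hand for 7 of the 9 genes. Gbp9 and Iigp1 had no entry. The RefSeq starts are not always those of the GENCODE models. In GENCODE, Irgm2 begins at 58199618 and Gbp2 at 142620602, both upstream of the RefSeq start used here. Distances are given from the RefSeq starts. The 170 bases before the start of Gbp2 (chr3:142620493-142620662, plus strand), Gbp7 (chr3:142530166-142530335, plus), Irgm1 (chr11:48871421-48871590, minus), Irgm2 (chr11:58214807-58214976, plus) and Igtp (chr11:58199386-58199555, plus) are printed 5′ to 3′ on the strand of the gene. Capitals mark matches to the core of the interferon-stimulated response element (ISRE, searched as GAAANNGAAA on both strands) or to the gamma-activated site (GAS, searched as TTCNNNGAA, the same on both strands).
Gbp2: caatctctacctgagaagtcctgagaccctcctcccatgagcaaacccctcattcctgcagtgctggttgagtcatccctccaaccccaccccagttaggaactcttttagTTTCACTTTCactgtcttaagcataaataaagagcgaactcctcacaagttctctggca
Gbp7: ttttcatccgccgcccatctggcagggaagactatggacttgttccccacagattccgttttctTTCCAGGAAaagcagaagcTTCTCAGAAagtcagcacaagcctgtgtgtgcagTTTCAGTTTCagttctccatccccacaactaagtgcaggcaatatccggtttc
Irgm1: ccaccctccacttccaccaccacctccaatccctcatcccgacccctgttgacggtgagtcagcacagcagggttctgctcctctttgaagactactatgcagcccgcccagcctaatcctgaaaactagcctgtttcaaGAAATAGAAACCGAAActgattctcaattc
Irgm2: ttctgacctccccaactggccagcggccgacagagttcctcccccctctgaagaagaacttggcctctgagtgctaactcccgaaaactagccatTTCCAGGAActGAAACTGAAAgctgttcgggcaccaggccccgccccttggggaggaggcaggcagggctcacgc
Igtp: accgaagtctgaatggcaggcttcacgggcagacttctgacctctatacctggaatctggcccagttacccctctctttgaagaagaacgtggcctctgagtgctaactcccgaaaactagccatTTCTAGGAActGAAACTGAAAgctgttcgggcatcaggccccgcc

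All 7 genes with an entry held at least 1 ISRE core, against 3.44% of the 32851 RefSeq windows of the same length. A GAS was found in 4 of the 7 (Gbp5, Gbp7, Irgm2 and Igtp), against 8.30% of all windows, and 0.454% of all windows held both. The ISRE core began 59 bases before the start in Gbp2, 53 in Gbp7, 64 in Irgm2, 34 in Igtp and 165 in Gbp5. Gbp3 and Irgm1 each held a pair of overlapping cores, at 45 and 39 bases and at 30 and 24 bases before the start. In the second window that RefSeq gives for Gbp3, neither motif was found. In Irgm2 and Igtp the GAS began 11 bases upstream of the ISRE core, at 75 and 45 bases before the start. The Irgm2 and Igtp windows aligned over 270 columns, 244 of which (90.4%) were identical. A match describes letters in the window and is not a measured binding site.

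**Figure D1:**
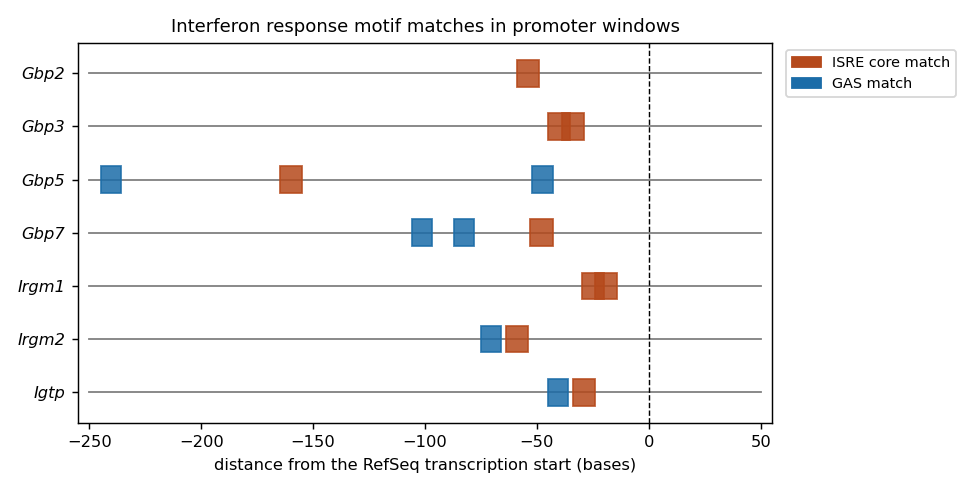
Matches to the ISRE core (orange) and the GAS (blue) in the RefSeq windows of 7 GTPase genes, drawn by distance from the transcription start in bases. Each gene has an ISRE core before its start, within 65 bases of it in all but Gbp5, and 4 of the 7 also have a GAS.

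Depth ran from 2615404 to 6364994 gene reads per library, where a single read equals 0.718 to 1.60 normalized counts. Tgfbr2 fell by 0.40 in KO microglia and by 0.56 in KO macrophages on the log2 scale, in counts over the whole gene that do not isolate the floxed exons. Cx3cr1 ranged from 16231 to 21676 in WT and from 398 to 625 in KO microglia, and was at 7169 to 8319 and 1359 to 1518 in WT and KO macrophages. Summed over 8 microglia markers, WT microglia had 61420 to 79598 normalized counts, KO microglia 4781 to 5261, WT macrophages 18116 to 18908 and KO macrophages 5333 to 6178, so the cells labelled KO microglia carried little of that signature. The sum of 8 macrophage markers was 39643 to 44802 in WT and 132882 to 146860 in KO microglia, and 155211 to 168470 in WT and 118579 to 135428 in KO macrophages. The Y-linked gene Ddx3y was at 470 to 508 in all 3 KO microglia libraries, while only 1 library of 3 was high in each other group. Sex is thus uneven between the groups, and a fit with log2 Ddx3y as a covariate is given where it changes a call.

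Loss of Tgfbr2 in microglia went with higher transcripts of 8 of the 9 GTPases. Iigp1 rose most, from near absence, followed by Gbp2 and Gbp9, while Irgm2 was the one member that did not rise. With limma and Benjamini-Hochberg adjustment over 12519 tested genes at 0.05, 8 members were called higher and 0 lower; of all tested genes, 21.9% were called higher and 20.6% lower. In 7 members every KO library lay above every WT library, against 27.4% of all tested genes. The median log2 fold change of the 9 was 0.78, beside -0.01 over all tested genes.

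Iigp1 (GRCm38 chromosome 18, 60376027 to 60392634, plus strand) encodes an effector IRG that loads onto the vacuoles of intracellular parasites. Its normalized counts were 3.53, 2.58 and 8.28 in the WT libraries and 322, 362 and 400 in the KO libraries of microglia. The WT libraries rested on 2 to 8 reads each, and the groups lay far apart. The ratio of the means was 75.3, and the log2 fold change, on the scale of log2(normalized count + 1), was 6.08 ± 0.40 (SE; adjusted p = 6.66e-09). This size moved with the processing: with a pseudocount of 10 the log2 fold change was 4.66, and without WT microglia library 3 the ratio of means was 118.

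Among the GBPs, Gbp2, which coats the vacuoles of intracellular pathogens, stood at 52.0, 32.2 and 45.5 in the WT microglia libraries and at 116.9, 119 and 127 in those of KO microglia. The 3 KO libraries were close to each other and all more than 60 above the highest WT library. The log2 fold change was 1.49 ± 0.37 (adjusted p = 0.00457). The WT libraries had 198, 214 and 240 normalized counts of Gbp9 and the KO libraries 517, 405 and 504, again without overlap, with a log2 fold change of 1.12 ± 0.19 (adjusted p = 0.000221). Gbp7, which has been linked to assembly of the phagocyte NADPH oxidase, was at 347, 348 and 430 in WT and at 673, 544 and 723 in KO microglia. All KO libraries were higher, and the log2 fold change was 0.78 ± 0.16 (adjusted p = 0.000986).

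Gbp5, which has been linked to NLRP3 inflammasome assembly, was at 137, 134 and 155 in the WT libraries, against 206, 220 and 231 in the KO libraries. The groups did not overlap, and the log2 fold change was 0.62 ± 0.18 (adjusted p = 0.0111). Gbp3 had 113, 107 and 190 normalized counts in the WT libraries and 211, 169 and 240 in the KO libraries. One WT library, the one high in Ddx3y, reached into the KO range, and the log2 fold change of 0.63 ± 0.24 was close to the threshold (adjusted p = 0.0458). With the Ddx3y covariate 5 of the 9 members were called higher: the adjusted p was 0.329 for Gbp3, 0.0648 for Gbp5 and 0.17 for Igtp. The call of Gbp3 was also lost with robust variance moderation (0.0741) and without 1 of 7 libraries in turn (0.0512 to 0.178).

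The regulatory IRGs were not alike. Irgm1, which is needed for resistance to mycobacteria and acts in autophagy and lysosome function, was at 184, 162 and 187 without the deletion and at 347, 315 and 321 with it. Its libraries were tight within each group and lay well apart, and the log2 fold change was 0.88 ± 0.11 (adjusted p = 1.39e-05). Igtp, an endoplasmic reticulum IRG, was at 146, 151 and 143 in WT and at 183, 185 and 203 in KO microglia. The difference was small but without overlap, with a log2 fold change of 0.37 ± 0.13 (adjusted p = 0.0272), and its call was lost under 6 of 20 alternatives, 4 of them leaving out 1 microglia library. Irgm2, which restrains caspase-11 responses, was at 363, 366 and 310 in WT and at 302, 285 and 309 in KO microglia. The KO libraries were the lower ones by a narrow margin, and the log2 fold change of -0.21 ± 0.12 did not pass the test (adjusted p = 0.175).

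**Figure D2:**
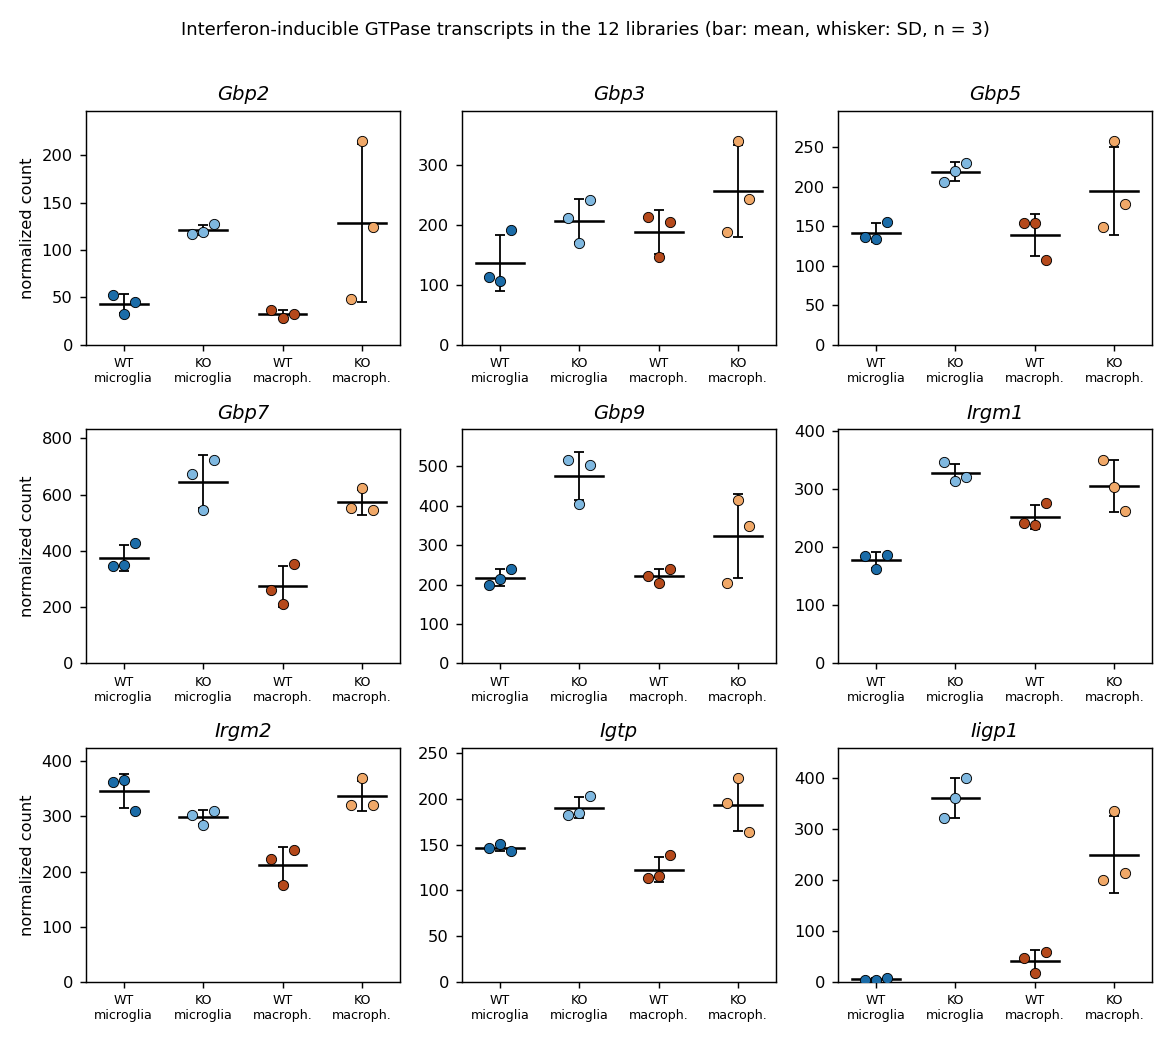
Normalized counts of the 9 GTPases in each of the 12 libraries (points), with the group mean (bar) and SD (whisker, n = 3), each panel on its own linear axis from 0. Iigp1 is near 0 in the WT microglia and at 200.1 to 400 in both KO groups, whereas Irgm2 is lowest in the WT macrophages.

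In macrophages, loss of Tgfbr2 went with higher transcripts of 5 of the 9: Iigp1, Gbp2, Gbp7, Irgm2 and Igtp. None was called lower. Of all tested genes, 16% were called higher and 15.4% lower, and in 22.4% every KO library lay above every WT library, as it did in the same 5 members. The median log2 fold change of the 9 was 0.65, beside 0.00072 over all tested genes.

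Iigp1 was at 46.4, 16.5 and 57.6 in WT macrophages and at 200.1, 336 and 213 in KO macrophages. All KO libraries were higher, with a ratio of means of 6.22 and a log2 fold change of 2.74 ± 0.40 (adjusted p = 0.000107). Gbp2 was at 36.4, 27.96 and 32.9 in WT and at 48.0, 215 and 124 in KO macrophages. The KO libraries spread widely, with a coefficient of variation of 64.7% against 4.43% in KO microglia. Even so, the lowest was above every WT macrophage library. The log2 fold change was 1.72 ± 0.37 (adjusted p = 0.0027).

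Gbp7 was at 259, 210 and 354 in WT macrophages and at 551, 623 and 544 in KO macrophages, a log2 fold change of 1.09 ± 0.16 (adjusted p = 0.000109). Irgm2, in contrast to microglia, was higher in the KO libraries, at 222, 175 and 240 in WT and at 320, 369 and 322 in KO macrophages. Its log2 fold change was 0.67 ± 0.12 (adjusted p = 0.000503). Igtp was at 114, 116 and 138 in WT and at 195, 223 and 164 in KO macrophages, with a log2 fold change of 0.65 ± 0.13 (adjusted p = 0.00118). For these 3 genes the WT and KO libraries did not overlap.

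The other 4 members did not pass the test in macrophages, and in each the WT and KO libraries overlapped. Gbp9 was at 221, 205 and 240 in WT and at 205, 414 and 349 in KO macrophages, with a log2 fold change of 0.48 ± 0.19 (adjusted p = 0.0714). Gbp5 was at 154, 154 and 108 in WT and at 148.9, 257 and 178 in KO macrophages, with 0.47 ± 0.18 (adjusted p = 0.0602). In both genes KO macrophage library 1 lay within the WT range and the remaining KO libraries above it. Without that library the limma adjusted p was 0.000154 for Gbp9 and 0.00858 for Gbp5. Both were also called with limma-voom (adjusted p = 0.0322 for Gbp9 and 0.0275 for Gbp5), and Gbp9 with the Ddx3y covariate (0.55 ± 0.17, adjusted p = 0.027). Irgm1 was at 242.1, 238 and 276 in WT and at 351, 305 and 262 in KO macrophages, with a log2 fold change of 0.27 ± 0.11 (adjusted p = 0.0838). Without KO macrophage library 3, its lowest, the adjusted p was 0.0224. Gbp3 was at 213, 146 and 205 in WT and at 187, 339 and 243.5 in KO macrophages, with 0.42 ± 0.24 (adjusted p = 0.196).

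Most members ordered the KO macrophage libraries alike. Library 2 was the highest of the 3 for 8 of the 9 members, with a median log2 deviation of 0.42 from the group mean, and library 1 was the lowest for 6, with -0.28. Irgm1 ran the other way, highest in library 1 and lowest in library 3. The order was not general to interferon-responsive genes: of 20 interferon-stimulated genes outside the GTPase families, 12 were highest in library 1 and 8 in library 2, and 17 were lowest in library 3. Among them Oas2 was at 1500, 1389 and 1297 in libraries 1, 2 and 3. Library 1 was the shallowest of all 12 libraries, at 2615404 reads, and library 2 was the KO macrophage library high in Ddx3y. In each WT group library 3 was the one high in Ddx3y. It was the highest of its group for 6 of the 9 members in WT microglia and for 6 in WT macrophages. It was the lowest for 2 members in WT microglia and for 1 in WT macrophages. Summed over 10 T and NK cell markers, the KO macrophage libraries ranged from 48.0 to 118, and from 13.6 to 14.8 without Cd4, which macrophages can also express. The part of depth, sex and other cells in this order was not tested.

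The KO effect differed between macrophages and microglia in 3 members by the interaction term of the same fit. Of all tested genes, 13% were called higher in this term and 12.9% lower, so the members' 1 higher and 2 lower were near the background. For Iigp1 the KO effect was smaller in macrophages by 3.34 on the log2 scale (interaction -3.34 ± 0.57, adjusted p = 0.000489; -2.22 with a pseudocount of 10 and -2.64 with the Ddx3y covariate), which went with a WT level of 40.2 ± 21.2 in macrophages against 4.79 ± 3.06 in microglia (SD, n = 3). For Irgm1 the interaction was -0.61 ± 0.16 (adjusted p = 0.0123), and -0.53 ± 0.18 with the Ddx3y covariate (adjusted p = 0.061). For Irgm2 it was 0.88 ± 0.17 (adjusted p = 0.00114), the only member called in this direction. The other 6 members did not pass this test, among them Gbp9 at -0.64 ± 0.27 (adjusted p = 0.103; 0.022 without KO macrophage library 2) and Gbp2 at 0.24 ± 0.53 (adjusted p = 0.789).

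**Figure D3:**
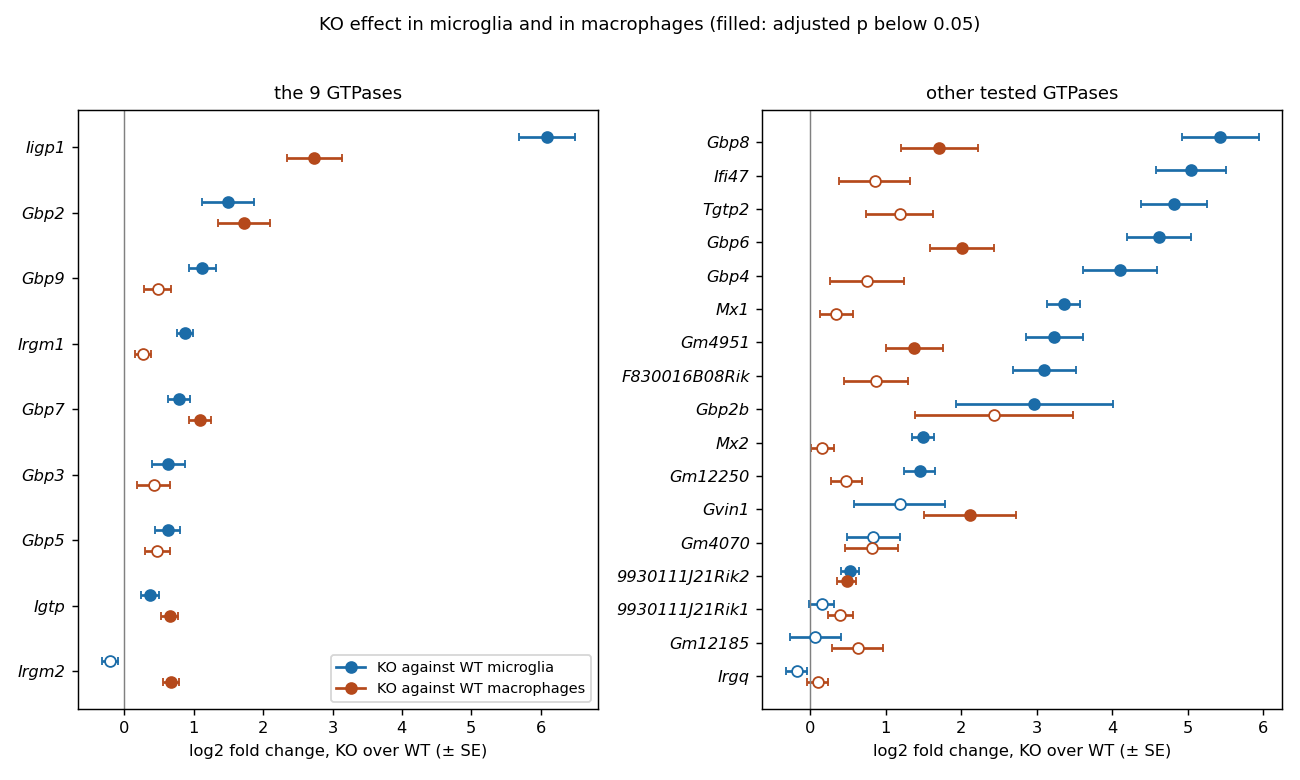
Log2 fold changes (± SE) of KO over WT in microglia (blue) and macrophages (orange) for the 9 GTPases (left) and 17 other tested GTPases (right); filled points have a limma adjusted p below 0.05. Irgm2 is the one of the 9 with a point below 0, in microglia, and most of the other GTPases sit further right in microglia than in macrophages; points of Gbp6 and Gbp2b in microglia are fitted against a WT group with 0 reads.

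The WT cells of both origins differed in 4 members. WT macrophages had more Iigp1 (log2 fold change 2.78 ± 0.40, adjusted p = 5.48e-05; 1.67 with a pseudocount of 10) and more Irgm1 (0.50 ± 0.11, adjusted p = 0.00276) than WT microglia. They had less Irgm2 (-0.71 ± 0.12, adjusted p = 0.000189) and less Gbp7 (-0.48 ± 0.16, adjusted p = 0.0288). The Gbp7 libraries overlapped, and its call was lost without WT macrophage library 1, WT macrophage library 2 or WT microglia library 3 (adjusted p 0.0826 to 0.156). Of all tested genes, 19.2% were called higher and 20.2% lower in WT macrophages, so the members' 2 and 2 were near the background. These values share the WT groups with the KO comparisons.

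Between the KO cells of both origins, 0 members were called by limma. At an unadjusted p under 0.05 there was 1, Gbp9, lower in macrophages by a log2 fold change of -0.61 ± 0.19 (adjusted p = 0.0605). With limma-voom on the reads read back from the table, Gbp9 was called (adjusted p = 0.0391), and without KO macrophage library 2 limma gave 0.0107. Of all tested genes, 5.45% were called higher and 5.05% lower. The median log2 difference of the 9 was -0.15.

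Summed over the 9 genes, WT microglia had 1590 ± 105 normalized counts, KO microglia 2846 ± 229, WT macrophages 1482 ± 183 and KO macrophages 2562 ± 459 (SD, n = 3). The lowest KO library of either origin, at 2206, was above the highest WT library, at 1710. The share of Iigp1 in this sum was 0.294% for WT microglia, 12.7% for KO microglia, 2.62% for WT macrophages and 9.62% for KO macrophages. Without Iigp1 the sum was 1585, 2485, 1442 and 2312 in the same order. In sorted pools, fewer cells that express a gene and less RNA per cell cannot be told apart.

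Scaled per kb of merged exons, so that levels can be set side by side between genes, the order of the members changed with the group. In WT microglia Irgm2 was highest at 93.9 normalized counts per kb, then Igtp at 72.5 and Gbp7 at 66.8, and Iigp1 was lowest at 0.823. In KO microglia Gbp7 led at 115, followed by Igtp at 94.1, Gbp9 at 91.9 and Irgm2 at 81.0, and Iigp1 had reached 62.0. In WT macrophages Igtp, Gbp3 and Irgm2 were close together at 60.6, 57.6 and 57.5. In KO macrophages Gbp7 at 102, Igtp at 95.9 and Irgm2 at 91.3 were the highest, and Gbp5 was the lowest at 29.3.

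**Figure D4:**
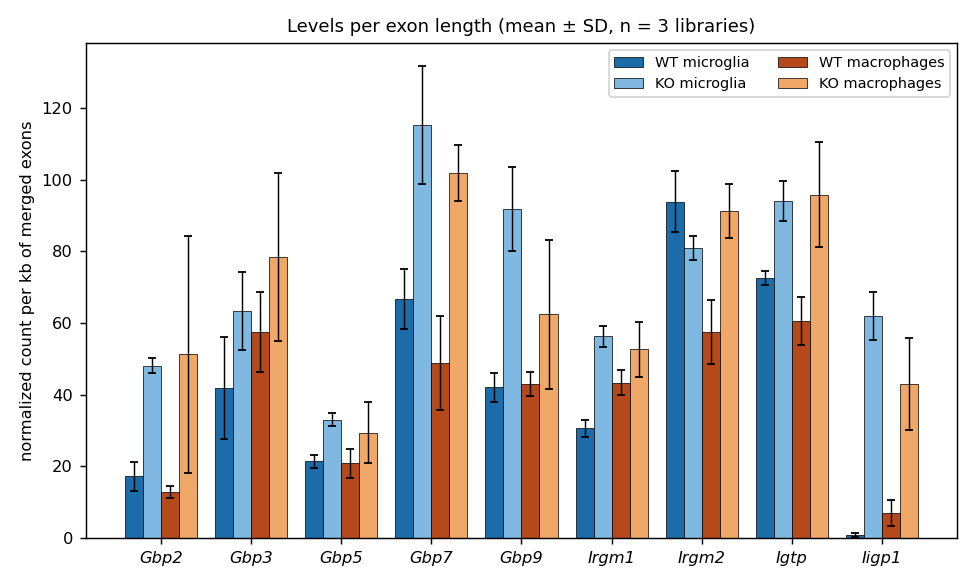
Normalized counts per kb of merged exons for the 9 GTPases in the 4 groups (bars, mean; whiskers, SD, n = 3 libraries), on a linear axis from 0. Irgm2 leads in WT microglia at 93.9 and Gbp7 leads in both KO groups, at 115 and 102, while Iigp1 goes from 0.823 in WT microglia to 62.0 in KO microglia.

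Ordered by mean over the groups, neighbouring groups were often not separable. The libraries of neighbours overlapped at every step for Gbp3, Gbp5 and Gbp9. For Gbp2 and Gbp7 both WT groups overlapped and both KO groups overlapped. For Gbp7 the step between WT and KO was free of overlap. For Gbp2 WT microglia and KO microglia lay apart, but KO macrophage library 1, at 48.0, was below WT microglia library 1, at 52.0. Iigp1 rose from WT microglia to WT macrophages to KO macrophages without overlap, and KO macrophages and KO microglia overlapped. Irgm2 had an order of its own: WT macrophages at 212 ± 33.2, KO microglia at 299 ± 12.5, KO macrophages at 337 ± 27.8 and WT microglia at 346 ± 31.2, of which the last pair overlapped.

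Across the 12 libraries, which share the 4 group differences, the 36 pairs of members had Pearson correlations of log2 values from -0.10 to 0.94, with a median of 0.67. The one pair below 0 included Irgm2. By Pearson correlation over the 12 libraries, the genes most like the mean standardized profile of the 9 were Cd274 (r = 0.976), Cd47 (0.976), Tmem26 (0.974), Dtx3l (0.972) and Lbr (0.972). Cd274 encodes PD-L1, the ligand of PD-1, and Cd47 the ligand of SIRP-alpha that restrains phagocytosis. Cd274 went from 72.3 ± 8.81 (WT) to 166 ± 11.8 (KO) in microglia and from 58.6 ± 19.3 to 159 ± 51.5 in macrophages (SD, n = 3).

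Member by member, the most alike gene was Ifih1, which encodes the RNA sensor MDA5, for Iigp1 (r = 0.988). It was Rtp4, an interferon-stimulated gene, for Irgm1 (0.975), Rbl2 for Gbp9 (0.971), Cd47 for Gbp7 (0.963), B3glct for Gbp2 (0.959), Tmem71 for Igtp (0.951), Hspb11 for Gbp3 (0.907) and S100a6 for Gbp5 (0.901). For Irgm2 it was Pdia4 (0.969), a protein disulfide isomerase of the endoplasmic reticulum. Pdia4 went from 976 ± 95.8 (WT) to 818 ± 77.5 (KO) in microglia and from 534 ± 86.5 to 1019 ± 52.1 in macrophages (SD, n = 3). Hspb11 and S100a6 were at group means below 20 throughout.

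Most further GTPases of these families that were tested were higher in KO microglia. Of 21 further genes of the GBP, IRG, GVIN and Mx families, 17 were tested, and 12 were called higher and 0 lower in KO microglia. Over all tested genes the shares were 21.9% and 20.6%. Gbp6, Gbp2b and Gvin1 were below 10 in every WT library and passed the filter through KO libraries alone. Gbp6 and Gbp2b were among these 12. Gbp8 went from 10.8 to 337 (log2 fold change 5.44 ± 0.51, adjusted p = 3.6e-07) and Ifi47, an IRG of the effector class, from 2.11 to 76.6 (5.05 ± 0.47, adjusted p = 3.3e-07). Gbp6 and Gbp2b had 0 reads in the WT microglia, and the KO means were at least 22.2-fold and at least 7.27-fold higher than the level of 3 reads over the group. The median of the fitted log2 fold changes was 2.97, and 2.86 with these genes at their bounds, beside 0.78 for the 9.

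In KO macrophages 5 of the 17 were called higher and 0 lower, with a median of 0.81. Over all tested genes the shares were 16% and 15.4%. Gbp6 and Gvin1, which passed the filter through KO libraries alone, were among these 5. Gbp8 went from 120 to 411 (1.71 ± 0.51, adjusted p = 0.0187) and Gm4951, an IRG neighbour of Iigp1, from 88.7 to 230.1 (1.38 ± 0.38, adjusted p = 0.0116). This count ranged from 3 to 9 over the alternatives. Between the WT groups 10 of the 17 were called higher in macrophages and 0 lower, Ifi47 (4.44 ± 0.47, adjusted p = 2.11e-06) and Gbp8 (3.95 ± 0.51, adjusted p = 1.68e-05) among them. The interaction was called lower in 10 of the 17 and higher in 0. The shares over all tested genes were 19.2% higher and 20.2% lower between the WT groups, and 13% higher and 12.9% lower in the interaction. Between the KO groups limma called 0 of the 17, with 3 at an unadjusted p under 0.05; limma-voom called 1 lower.

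Of 20 classical interferon-stimulated genes outside the GTPase families, all tested, 19 were called higher in KO microglia and 0 lower, with a median log2 fold change of 3.51. Oas2, an RNA-sensing synthetase, went from 13.9 to 1899. Oas3 went from 2 reads over the WT group to 312 reads over the KO group, a ratio of 137 with a 95% counting interval of 37.6 to 1135. In KO macrophages 9 were called higher and 1 lower, with a median of 0.76: Ifitm3, which blocks virus entry, went from 70.8 to 506 and Rsad2 (viperin) from 62.9 to 192, while Bst2 (tetherin) went from 421 to 269.7. Between the WT groups 18 were called higher in macrophages and 0 lower, among them Oas2 (595 in macrophages) and Ifi44 (125, against 3.88 in microglia). The interaction was called lower in 18 and higher in 0. Between the KO groups 2 were called lower in macrophages and 0 higher: Cxcl10, at 69.2 against 150.1 in microglia, and Ifit2, at 350 against 726. Over all tested genes, 21.9% were called higher and 20.6% lower in KO microglia, and 16% and 15.4% in KO macrophages. The shares were 19.2% and 20.2% between the WT groups, 5.45% and 5.05% between the KO groups, and 13% and 12.9% in the interaction.

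Genes of the interferon-gamma pathway moved in both directions. Of 12 tested, 5 were called higher and 2 lower in KO microglia, beside 21.9% and 20.6% of all tested genes. The factor Irf1 rose by 0.53 ± 0.11 (adjusted p = 0.000802), the MHC class II activator Ciita by 4.54 ± 0.21 and the MHC class I activator Nlrc5 by 2.83 ± 0.14. The receptor chain gene Ifngr1 fell by 0.34 and the factor Irf8 fell by 0.61, and the log2 fold changes of Jak1 (-0.01), Jak2 (-0.10) and Ifngr2 (-0.10) did not pass. In KO macrophages 4 were called higher, with Irf1 at 0.74 ± 0.11 (adjusted p = 8.27e-05), Ciita at 2.75 ± 0.21, Jak1 at 0.49 ± 0.08 and Ifngr1 at 0.36 ± 0.09, and 2 lower, Ifngr2 at -0.34 and Irf8 at -0.21. Over all tested genes the shares in KO macrophages were 16% higher and 15.4% lower. Between the WT groups 4 were called higher in macrophages and 3 lower, beside 19.2% and 20.2% of all tested genes. Between the KO groups 1 was called higher (Ciita) and 0 lower, beside 5.45% and 5.05%. In the interaction 3 were called each way, beside 13% higher and 12.9% lower. Ifng itself had 0 reads in all WT libraries, 1 read in the KO microglia and 3 reads over the KO macrophage libraries.

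Of 8 tested genes of the type I interferon pathway, 7 were called higher in KO microglia and 0 lower, led by Irf7 (3.66 ± 0.32) and Usp18 (2.59 ± 0.30), with Stat2 at 1.65 ± 0.13, Ifnar1 at 0.99 ± 0.09 and Irf9 at 0.52 ± 0.11. In KO macrophages Irf7 (1.52 ± 0.32) and Stat2 (0.58 ± 0.13) were called higher and the receptor gene Ifnar1 (-0.49 ± 0.09) lower. The same number, 7, was called higher in WT macrophages than in WT microglia and 0 lower. The shares called higher over all tested genes were 21.9% in KO microglia, 16% in KO macrophages and 19.2% in WT macrophages. Those called lower were 20.6%, 15.4% and 20.2% in the same order. Ifnb1 had 0 to 2 reads in any library.

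Some products of the GTPase genes work with the autophagy conjugation system and with inflammasomes, so these lists were counted too. The shares called higher and lower over all tested genes were 21.9% and 20.6% in KO microglia, and 16% and 15.4% in KO macrophages. Of 10 conjugation genes, 4 were called higher in KO microglia and 2 lower, among them Atg7 (0.72 ± 0.10) and Atg5 (-0.70 ± 0.16), and 3 higher and 0 lower in KO macrophages. Of 10 inflammasome genes, 4 were called higher and 5 lower in KO microglia. Nlrc4 went from 1 read to 761 reads over the group, a ratio of 668 (95% counting interval 119 to 26405), and Il1b from 21.2 to 327, while the adaptor gene Pycard fell by 0.95 and the DNA sensor gene Aim2 by 0.64. In KO macrophages 2 were called higher, Pycard (0.66 ± 0.13) and Il18 (0.52 ± 0.16), and 2 lower, Aim2 (-0.97 ± 0.11) and Naip5 (-0.47 ± 0.13).

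Transcripts of other cells moved with the genotype beside these results. The sum of 5 neuron markers was 14.1 to 18.0 in WT and 86.0 to 124 in KO microglia, and 30.04 to 52.1 in WT and 63.9 to 123 in KO macrophages. The sum of 5 astrocyte markers was 42.3 to 100 in WT and 175 to 249.2 in KO microglia, and 37.0 to 58.5 in WT and 125 to 140.9 in KO macrophages. The 10 T and NK cell markers summed to 2.64 to 7.73 in WT and 23.6 to 28.9 in KO microglia, and to 3.81 to 12.7 in WT and 48.0 to 118 in KO macrophages. Without Cd4 the same sums were 1.76 to 7.73 and 6.43 to 13.7 in microglia, and 0 to 6.37 and 13.6 to 14.8 in macrophages. Among defining T and NK genes, mean Cd3e went from 0.345 to 2.23 with the deletion in microglia and from 0.578 to 2.65 in macrophages. Cd3d and Ncr1 had reads in KO but not in WT microglia, and Trac and Nkg7 had none in either. Cd3d, Trac and Nkg7 had reads in KO but not in WT macrophages, whereas Ncr1 had reads in WT but not in KO macrophages. The dendritic cell list was at 5419 to 5808 in WT and 333 to 397 in KO microglia, mostly through Siglech, which microglia also express. Without Siglech it was at 26.4 to 27.1 in WT and 102 to 132.7 in KO microglia, and at 41.9 to 54.3 in WT and 70.4 to 116 in KO macrophages. Vessel markers summed to 134 to 248.5 in WT and 43.2 to 52.1 in KO microglia. They went the other way in macrophages, at 58.3 to 67.5 in WT and 91.2 to 153 in KO. Oligodendrocyte markers summed to 286 to 312 in WT and 381 to 420 in KO microglia. In macrophages they were at 268 to 283 in WT and 271 to 482 in KO. A monocyte list was at 41.4 to 54.1 in WT and 121 to 165 in KO microglia, and at 169 to 216 in WT and 160.1 to 353 in KO macrophages, with its defining gene Ly6c2 at 0 in all groups but the last. The part of these transcripts in the GTPase levels was not tested.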

How the data were processed

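RNA from 12 libraries of sorted mouse cells was measured. The authors deposited log2 values for 25904 genes. Per the submitters' processing notes, bcl2fastq, CASAVA, STAR and build GRCm38 were used; the sources used here do not give versions, roles, read counter, annotation release or strand setting. Once taken off the log scale, 100% of 310848 values were whole multiples of a library's smallest step (tolerance 0.01 reads), so the deposited log2 unit is log2(normalized count + 1), and reads could be read back.

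Tests covered the 12519 genes that reached a normalized count of 10 in 3 or more libraries, leaving out 13385. The test was limma 3.58.1 in R 4.3.3 on the deposited values, with 4 group means in 1 fit, a mean-variance trend, and Benjamini-Hochberg adjustment over all tested genes with a threshold of 0.05. The fit leaves 8 residual degrees of freedom. Its 5 contrasts compared genotypes within each origin, origins within each genotype, and the KO effects of both origins (interaction). Log2 folds understate changes of low genes. The script was first tested on simulated data. A group with 0 reads was set to 3 reads over the group; ratios with 1 to 3 reads carry exact binomial 95% intervals (scipy 1.17.1). Both reflect counting error alone: without molecular identifiers, reads need not be separate molecules. Lengths came from GENCODE models on GRCm38, promoter sequences from RefSeq (GRCm38.p6), alignments from biopython 1.88, and the rest from Python 3.11.15.

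The rule named all 9 members; in each list the called genes with the largest change each way and a group mean of at least 50, with pathway receptors, kinases and factors; Tgfbr2, Cx3cr1 and Ddx3y as checks; and the genes of the most similar profile. A gene that the rule named is not reported here. The members and lists were chosen with earlier results of these data known. Library numbers are accession order. Alternatives were other filters, a pseudocount of 10, scaling to library totals, limma-voom, robust moderation, 2-group fits, a Ddx3y covariate and leaving out each library.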

Additional observations from a re-analysis of the deposited data

Results flagged for a closer look

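For 3 genes the KO effect in macrophages differed from that in microglia by the interaction term of limma's fit. With 13% of all tested genes called higher in this term and 12.9% lower, the members' 1 higher and 2 lower were near the background. For Iigp1 the difference was -3.34 on the log2 scale (adjusted p = 0.000489): the KO libraries of both origins overlapped, and the WT libraries did not. For Irgm1 it was -0.61 (adjusted p = 0.0123), with KO libraries overlapping and WT macrophages above WT microglia. For Irgm2 it was 0.88 (adjusted p = 0.00114), with a KO effect of -0.21 in microglia, which did not pass the test, and of 0.67 in macrophages.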

How the results depend on the processing

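No paired analysis was possible because the labels carry no replicate numbers. Members called higher in KO microglia were 5 with the Ddx3y covariate (8 without it) and 6 to 8 when 1 library was left out; in KO macrophages they were 5 to 7. Other GTPases called higher in KO macrophages, 5 in all libraries, were 3 with the stricter filter, 9 with a pseudocount of 10, 9 with limma-voom, 8 in the 2-group fit and 3 to 9 leaving out a library; in KO microglia they were 11 to 13. Leaving out a library gave 2 to 3 members higher and 1 to 2 lower in WT macrophages, and 10 other GTPases higher. Other GTPases lower there were 0 to 1 leaving out a library and 1 in the 2-group fit, against 0. Between the KO groups, members lower were 1 with a pseudocount of 10, 1 with limma-voom and 0 to 1 leaving out a library. Other GTPases lower there were 1 with a pseudocount of 10, 1 with limma-voom, 1 in the 2-group fit and 0 to 1 leaving out a library. In the interaction, members lower were 1 with the Ddx3y covariate (2 without it) and 2 to 3 leaving out a library, and other GTPases lower 9 to 10.

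Signs turned only for member values that had not passed the test; the cause was not tested. Between WT origins Gbp5 was 0.021 with total scaling and -0.14 to 0.12 leaving out a library, above 0 without WT macrophage library 3 or WT microglia library 3. Gbp9 was -0.0089 with the Ddx3y covariate and -0.034 to 0.10 leaving out a library, below 0 without WT macrophage library 3 or WT microglia library 1. Between KO origins Gbp2 was 0.030 with limma-voom, 0.27 with the Ddx3y covariate and -0.64 to 0.43 leaving out a library, above 0 without KO macrophage library 1. Igtp was -0.00053 with limma-voom and -0.088 to 0.13 leaving out a library, below 0 without KO macrophage library 2 or KO microglia library 1 or 2. With the Ddx3y covariate Gbp7 was 0.067 and Iigp1 0.045. The interaction of Gbp3 was 0.23 with the Ddx3y covariate. Leaving out a library, that of Gbp2 was -0.25 to 0.82, below 0 without KO macrophage library 2, and that of Gbp5 -0.37 to 0.020, above 0 without KO macrophage library 1. Of 180 member values per KO comparison, 164 kept direction and side of the threshold in microglia and 174 in macrophages. In WT microglia the 2 to 8 reads of Iigp1 per library limit its fold.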
